A study of Mus musculus with 12 samples.

Results

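Chemokines are small secreted or membrane-anchored proteins that direct the migration of leukocytes and other cells. The genes described here are Cxcl14, Cxcl12, Cxcl1, Cxcl10, Cxcl16, Cx3cl1 and Ccl2. They were chosen from the mouse chemokine family with earlier results of these data known. A total of 6 of the 7 had a row among the 23378 genes of the deposited count table, and Ccl2 was not analysed here. The libraries came from C57BL/6 mice carrying nNos CreERT2 and the mTmG reporter, in which Cre driven from the neuronal nitric oxide synthase gene switches a cell from membrane tdTomato (red) to membrane eGFP (green). Kidney cortex was digested and sorted by fluorescence into green cells, taken as macula densa, and the most intensely red cells. Per the labels, these red cells served as controls standing for epithelium of the distal tubule and collecting duct. For 14 days the mice had either control diet or a low salt diet together with enalapril, which inhibits angiotensin-converting enzyme, at 150 mg/L in the drinking water. The 4 groups were macula densa cells on control diet (n = 2 libraries), macula densa cells on low salt with enalapril (n = 2), control cells on control diet (n = 4) and control cells on low salt with enalapril (n = 4). All groups shared the same transgenes, and low salt and enalapril were always given together, so their effects cannot be told apart. The labels do not say that libraries came from separate animals, so p-values measure the spread between these libraries.

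The macula densa is the epithelial plaque, where the thick ascending limb meets its own glomerulus, that senses luminal salt and signals to renin-producing cells and the glomerulus. Chemokine ligands bind receptors that act through inhibitory G proteins, and atypical receptors such as those encoded by Ackr2 and Ackr3 bind ligand without that signal and remove it. Most ligands are secreted and held on heparan sulfate, whereas the products of Cx3cl1 and Cxcl16 are made as transmembrane proteins and released by the metalloproteases encoded by Adam10 and Adam17. In the kidney, Cxcl12 and Cx3cl1 are known for their expression by resident cells, and Cxcl1, Cxcl10 and Ccl2 for their induction by inflammatory signals.

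The libraries held between 4259034 and 14856540 estimated counts, of which 781241 to 2331458 fell on protein-coding genes, and 53.5% to 65% of each library fell on the single gene Gm42418. The depth for chemokines was therefore low: a floor of 3 counts corresponded to 0.231 to 0.734 counts per 1000000 (CPM, scaled by the trimmed mean of M values). The labelled populations were checked against defining markers. Nos1, the gene that drives the Cre, stood at 106 ± 7.32 and 177 ± 78.2 CPM (SD) in macula densa cells on the 2 diets and at 0.343 ± 0.16 and 0.544 ± 0.159 CPM in control cells. The control cells held the collecting duct gene Aqp2 at 140 ± 92.0 and 86.3 ± 47.4 CPM, and also markers of other cell types. The endothelial gene Pecam1 was there at 87.1 ± 57.9 and 56.6 ± 33.3 CPM. Control-cell replicate 4 on control diet stood apart, with summed podocyte markers (10 genes) of 62.0 CPM and summed endothelial markers (11 genes) of 59.0 CPM where the group reached 1893 and 1868 CPM. The same library had the highest control-cell sums of distal tubule and collecting duct markers, the epithelium that the labels name. It held 945 CPM for collecting duct principal cells and 533 CPM for intercalated cells. For distal convoluted and connecting tubule it held 1287 CPM, and for thick ascending limb 1650 CPM. In bulk RNA of sorted cells, fewer cells of a type and less RNA per cell cannot be told apart.

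Cxcl14, which encodes a secreted homeostatic chemokine made mainly by epithelia, was counted almost only in macula densa cells on low salt with enalapril. It had 13 and 11 counts in those 2 libraries and 0 and 0 counts in the macula densa libraries on control diet. In control cells it had 2, 0, 0 and 0 counts on control diet and 2, 0, 0 and 0 counts on low salt with enalapril. No library of the other 3 groups rose above the floor, and both libraries of the low salt with enalapril macula densa group lay above it. In CPM the 2 libraries were at 2.49 and 1.80, with a mean of 2.15 ± 0.485 (SD). The 0 counts on control diet allowed up to 0.308 and 0.244 CPM (3 counts). The observed mean on low salt with enalapril was 7.78-fold higher than 3 counts per library, with no error taken on the 13 and 11 counts. With any 1 macula densa library left out this ratio ran from 6.54 to 9.02, which describes the same counts and adds no support. Against control cells on the same diet, 24 summed counts stood against 2, and all 4 of those control-cell libraries were at or under the floor. Because Cxcl14 was taken up for its difference between these groups, its values are a description, with no test. Between the diets in macula densa cells, 18.8% of the 14180 genes tested had both low salt with enalapril libraries above both control diet libraries, and 0% passed an edgeR adjusted p of 0.05 (0 genes, with 1594 at an unadjusted p under 0.05 and 93 called by DESeq2).

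Cxcl14 lies on chromosome 13 from 56288643 to 56296551 on the minus strand (GRCm38, GENCODE M21), with 4 exons. The 250 bases before its RefSeq transcription start (GRCm38.p6, chr13:56296552-56296801, minus strand) are shown because its counts came almost entirely from 1 group. The capitals mark the letters GAAA, any 2 letters and GAAA, the core of the interferon-stimulated response element, found on either strand in 2.98% of 32851 mouse promoter windows of the same length. The match starts 172 bases before the transcription start.
Cxcl14: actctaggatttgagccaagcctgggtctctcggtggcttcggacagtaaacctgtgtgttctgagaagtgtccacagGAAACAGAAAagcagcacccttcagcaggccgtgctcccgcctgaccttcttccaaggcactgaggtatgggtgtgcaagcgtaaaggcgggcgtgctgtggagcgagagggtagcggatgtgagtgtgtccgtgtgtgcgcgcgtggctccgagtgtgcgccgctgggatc
No match to the nuclear factor kappa B consensus, the letters TATAAA or the letters GGGCGG was found in this window, which says only that those letters are not in it. Interferon target genes are described with the signalling genes.

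**Figure D1:**
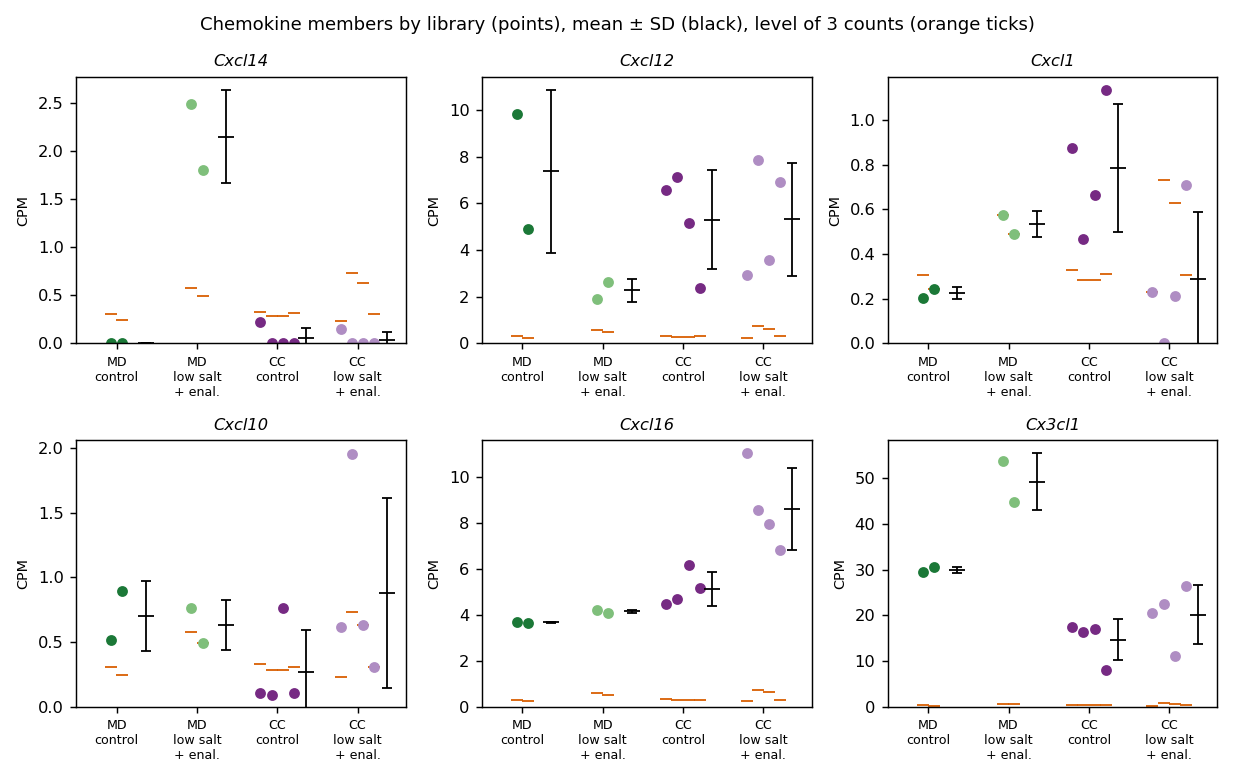
Level of each of the 6 genes in CPM (linear axis) by library in macula densa cells (MD) and control cells (CC) on control diet or low salt with enalapril. Points are libraries, black marks are the mean ± SD (bars below 0 are cut), and orange ticks show the level of 3 counts in each library; Cxcl14 exceeds the ticks only in the MD libraries on low salt with enalapril (2.49 and 1.80 CPM), and Cx3cl1 is higher in every MD library than in every CC library.

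Cx3cl1 encodes fractalkine, the membrane-anchored ligand of the receptor CX3CR1 on monocytes and microglia, and it had the highest level per kilobase of exon of the 20 chemokine ligand genes in every group. It lies on chromosome 8 from 94772009 to 94782427 on the plus strand, with 6 exons. Macula densa cells had 29.5 and 30.5 CPM on control diet and 53.6 and 44.8 CPM on low salt with enalapril. Control cells had 17.5, 16.3, 17.0 and 7.96 CPM on control diet and 20.5, 22.5, 11.1 and 26.5 CPM on low salt with enalapril. The lowest macula densa library lay above the highest control-cell library, although the margin between 29.5 and 26.5 CPM was small. Of all genes tested, 6.02% had the 2 populations separated without overlap within both diets in this direction. Averaged over both diets, Cx3cl1 was 2.23-fold higher in macula densa cells (log2 fold change 1.16, SE 0.24, edgeR adjusted p 0.00581). That comparison called 21.3% of all genes tested, 7.48% of them as higher. The call held with each of the 12 libraries left out in turn (adjusted p at most 0.0231), also with control-cell replicate 4 of the control diet left out (0.00169), whose 7.96 CPM was the lowest value of the series. It was lost with the replicate number of the sample titles as a block (adjusted p 0.0674) and kept with the number in the sample descriptions as a block (0.00128).

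Within each diet the Cx3cl1 difference was of similar size with less certainty. Under control diet it was a log2 fold change of 1.03 (SE 0.34) with an edgeR adjusted p of 0.0867, where 6.61% of all genes were called (2.69% higher and 3.92% lower). On low salt with enalapril it was 1.28 (SE 0.34) with an adjusted p of 0.0407, where 7.27% were called (3.15% higher and 4.13% lower). This call held only without control-cell replicate 1 or 4 on control diet or control-cell replicate 4 on low salt with enalapril. Without any 1 of the other 9 libraries the adjusted p ran from 0.0503 to 0.139, and with the title number as a block it was 0.161. Between diets, both macula densa libraries on low salt with enalapril lay above both on control diet, as did those of 18.8% of all genes tested. The log2 fold change was 0.71 (SE 0.40, edgeR adjusted p 0.540). In control cells the diets overlapped, at a log2 fold change of 0.46 (SE 0.29, adjusted p 0.928). The diet effects of the 2 populations differed by a log2 value of 0.25 (SE 0.49, adjusted p 0.943), which is smaller than its error.

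Cxcl16 encodes the other transmembrane chemokine, the ligand of CXCR6 on T and natural killer T cells, which also acts as a scavenger receptor. It lies on chromosome 11 from 70453983 to 70459984 on the minus strand, with 6 exons. Of its exonic bases, 552 overlap the opposite-strand gene Zmynd15 (0 to 18 counts per library), and no source used here says whether counting used strand, so its counts are uncertain to that extent. Macula densa cells had 3.69 and 3.67 CPM on control diet and 4.21 and 4.10 CPM on low salt with enalapril. Control cells had 4.48, 4.70, 6.19 and 5.17 CPM on control diet and 11.1, 8.57, 7.98 and 6.82 CPM on low salt with enalapril. All macula densa libraries were below all control-cell libraries, and the control-cell libraries on low salt with enalapril formed the highest group without overlap. Of all genes tested, 7.6% had every macula densa library below every control-cell library of the same diet, in both diets.

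Averaged over both diets, Cxcl16 was 1.70-fold lower in macula densa cells (log2 fold change -0.77, SE 0.19, edgeR adjusted p 0.0147), where 13.9% of all genes were called lower. The call was lost without macula densa replicate 1 or 2 on control diet (adjusted p 0.0556 and 0.072), and likewise without macula densa replicate 2 on low salt with enalapril (0.0608), at nearly the same log2 fold change (-0.78, -0.76 and -0.76). It was also lost with the title number or the description number as a block (0.0634 and 0.0573). On low salt with enalapril the log2 fold change was -1.05 (SE 0.28, adjusted p 0.0412). That call held without control-cell replicate 1 or 4 on control diet or control-cell replicate 3 or 4 on low salt with enalapril. It was lost without any 1 of the other 8 libraries (0.0585 to 0.199). Of 8 other alternatives it was lost in 5: library totals alone (0.0796), no filter (0.0633), only the groups compared (0.0725), and the title or description number as a block (0.108 and 0.142). On control diet it was -0.48 (SE 0.26, adjusted p 0.293).

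The diet difference of Cxcl16 in control cells was a log2 fold change of 0.75 (SE 0.21), with an unadjusted p of 0.00378 that became 0.496 after adjustment over all genes by edgeR. Of all genes tested, 2.1% had the control-cell groups separated without overlap in this direction and 0.00705% were called. In macula densa cells the diet difference was 0.18 (SE 0.31, adjusted p 0.871). The difference between the 2 diet effects, -0.57 (SE 0.38, adjusted p 0.790), did not pass.

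Cxcl12 encodes the homeostatic ligand of CXCR4 and of the scavenger ACKR3, made by stromal, endothelial and epithelial cells. It lies on chromosome 6 from 117168535 to 117181367 on the plus strand, with 3 merged exons. Macula densa cells had 9.85 and 4.89 CPM on control diet (96 and 60 counts) and 1.92 and 2.63 CPM on low salt with enalapril (10 and 16 counts). Control cells had 6.56, 7.14, 5.14 and 2.38 CPM on control diet and 2.92, 7.84, 3.57 and 6.92 CPM on low salt with enalapril. Both macula densa libraries on low salt with enalapril were below both on control diet, while the control-cell groups overlapped throughout. The fitted diet difference in macula densa cells was a log2 fold change of -1.68 (SE 0.62), with an unadjusted p of 0.0183 and an edgeR adjusted p of 0.361, so it did not pass. Of all genes, 21.8% had these 2 groups of 2 libraries separated without overlap in the lower direction. With a library left out the log2 fold change ran from -2.19 to -1.14.

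In control cells Cxcl12 had means of 5.31 ± 2.13 and 5.31 ± 2.43 CPM (SD), a log2 fold change of -0.02 (SE 0.41) whose sign changed with the fit and with the libraries left out. The diet effects of the 2 populations differed by -1.66 (SE 0.74), with an unadjusted p of 0.0437 and an adjusted p of 0.709. Between populations, Cxcl12 had a log2 fold change of 0.47 (SE 0.48, adjusted p 0.610) on control diet, which turned to -0.09 once macula densa replicate 1 of that diet was left out. It was -1.20 (SE 0.57, adjusted p 0.212) on low salt with enalapril, where both macula densa libraries lay below all 4 control-cell libraries, as did those of 19.5% of all genes. With the description number as a block that difference was -1.68 and passed (adjusted p 0.0212). The macula densa library with the most Cxcl12, replicate 1 on control diet, also had the highest summed markers of endothelium (209 CPM against 31.3, 19.7 and 14.4 in the other 3 macula densa libraries) and of fibroblasts and mesangium (27.9 CPM against 5.46, 5.94 and 4.10). Every control-cell library held less Cxcl12 than that library, with higher fibroblast and mesangium sums (31.5 to 154 CPM). Control-cell endothelial sums were also higher (308 to 1868 CPM), except 59.0 CPM in replicate 4 on control diet. That replicate had the lowest control-cell level of Cxcl12 (2.38 CPM). Of the 11 endothelial markers, Plvap alone was at 0 in both macula densa libraries on low salt with enalapril. The part of these cells in the Cxcl12 values was not tested.

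The upstream stretch of Cxcl12 (chr6:117168285-117168534, plus strand, RefSeq, GRCm38.p6) is shown beside that of Cxcl14 as a description. The diet difference of Cxcl12 did not pass and that of Cxcl14 had no test. A link between these letters and the levels was not tested. The capitals mark the letters GGGCGG on either strand, the GC box, which 32.7% of the 32851 windows hold. There are 5 matches, of which the last 2 overlap, starting 187, 86, 33, 16 and 11 bases before the start.
Cxcl12: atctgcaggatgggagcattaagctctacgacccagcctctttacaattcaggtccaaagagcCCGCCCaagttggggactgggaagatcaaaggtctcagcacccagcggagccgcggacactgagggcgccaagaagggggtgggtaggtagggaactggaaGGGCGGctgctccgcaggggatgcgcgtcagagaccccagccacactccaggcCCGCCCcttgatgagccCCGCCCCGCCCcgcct
The interferon core letters marked in the Cxcl14 window were not in this one, as in most windows (2.98% hold them).

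**Figure D2:**
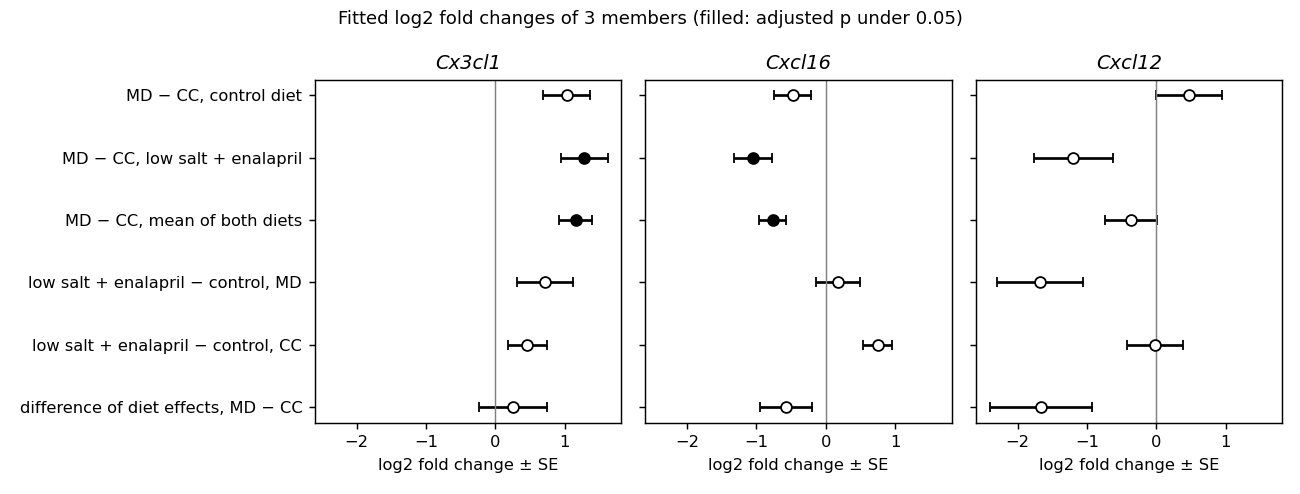
Fitted log2 fold changes (x axis) with standard errors for Cx3cl1, Cxcl16 and Cxcl12 in each of the 6 comparisons (y axis), where MD is macula densa cells and CC control cells. Filled points have an edgeR adjusted p under 0.05; Cx3cl1 lies above 0 in every population comparison, Cxcl16 below 0, and Cxcl12 changes side between the diets.

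Cxcl1 and Cxcl10 stayed near the floor and did not reach the low-count filter, so they were not tested in the main fit. In the fit without the filter neither passed in any of the 6 comparisons. The lowest edgeR adjusted p there was 0.34, for Cxcl1 between populations on control diet. Cxcl1, the neutrophil attractant that acts on CXCR2, lies on chromosome 5 from 90891241 to 90893115 on the plus strand. It had 2 and 3 counts in macula densa cells on control diet and 3 and 3 on low salt with enalapril. In control cells it had 8, 5, 7 and 11 counts on control diet and 3, 0, 1 and 7 on low salt with enalapril. No macula densa library exceeded the floor, whereas all 4 control-cell libraries on control diet and replicate 4 on low salt with enalapril did. Group means were 0.225 ± 0.0277, 0.533 ± 0.0584, 0.787 ± 0.286 and 0.288 ± 0.301 CPM (SD) in the order of the 4 groups given at the start.

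Cxcl10, the interferon-induced ligand of CXCR3, lies on chromosome 5 from 92346638 to 92348889 on the minus strand. Of its exonic bases, 133 overlap the opposite-strand gene Art3 (0 to 52 counts), so its low counts are uncertain. It had 5 and 11 counts in macula densa cells on control diet and 4 and 3 on low salt with enalapril. In control cells it had 1, 1, 8 and 1 counts on control diet and 8, 8, 3 and 3 on low salt with enalapril. Of the 4 control-cell libraries on control diet, 3 had 1 count, below every macula densa library. In CPM every pair of groups overlapped, with means of 0.704 ± 0.271, 0.629 ± 0.194, 0.267 ± 0.330 and 0.877 ± 0.736 CPM (SD) in the same order.

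Short upstream stretches of both genes are shown because the interferon and nuclear factor kappa B gene lists are counted further on. Each is 30 bases from RefSeq (GRCm38.p6), with the match in capitals. The nuclear factor kappa B consensus was present in 7.25% of all windows. The Cxcl1 stretch is at chr5:90891164-90891193 (plus strand), with its first match 71 bases before the start. The Cxcl10 stretches are at chr5:92349083-92349112 and chr5:92349029-92349058 (minus strand), 213 and 159 bases before the start.
Cxcl1 nuclear factor kappa B consensus: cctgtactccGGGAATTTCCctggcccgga
Cxcl10 interferon core: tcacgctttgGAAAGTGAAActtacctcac
Cxcl10 nuclear factor kappa B consensus: agaggggagaGGGAAATTCCaagttcatgg
Of the 7 genes, 5 had an entry in the promoter table.

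Levels were compared between genes only after division by exon length, as CPM per kilobase. In macula densa cells on control diet Cx3cl1 led with a level of 7.64 ± 0.166 (SD), followed by Cxcl16 with 1.22 ± 0.00642 and Cxcl12 with 0.901 ± 0.429. Cxcl16 and Cxcl12 did not differ there beyond their spread, and Cxcl14 was at 0. On low salt with enalapril the order in macula densa cells was Cx3cl1 at 12.5 ± 1.59, Cxcl16 at 1.38 ± 0.0265, Cxcl14 at 1.18 ± 0.266 and Cxcl12 at 0.278 ± 0.0613. Here Cxcl16 and Cxcl14 did not differ beyond the spread of Cxcl14, and Cxcl12 was level with Cxcl1 (0.284 ± 0.0311) and Cxcl10 (0.279 ± 0.0861). In control cells on control diet Cx3cl1 was at 3.73 ± 1.15, Cxcl16 at 1.70 ± 0.251 and Cxcl12 at 0.649 ± 0.260. On low salt with enalapril the same genes were at 5.13 ± 1.65, 2.85 ± 0.594 and 0.650 ± 0.297.

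Of the whole family of 41 listed mouse chemokine ligands, 20 had a row and 8 passed the low-count filter, which kept a gene that was high in only 1 group. In 8 of the 20 no library had more than 10 counts. The 7 tested ligands other than Cxcl14 were Cx3cl1, Cxcl12, Cxcl16, Ccl25, Ccl6, Ccl9 and Ccl27a. Averaged over both diets, edgeR called 1 of these 7 higher in macula densa cells (Cx3cl1) and 2 lower (Cxcl16 and Ccl6), with a median log2 fold change of -0.36 beside -0.06 over all genes tested. These 3 of 7 stand beside the 21.3% of all genes called there. Ccl6 had at most 3 counts in any macula densa library and passed the low-count filter only through control cells. Its lower direction is therefore set in part by the filter. Scaling by library totals alone moved the median of all genes to 0.14 and turned the split of called genes from 1061 higher and 1966 lower to 1827 higher and 1450 lower. On low salt with enalapril 1 was called higher (Cx3cl1) and 1 lower (Cxcl16), with a median of -0.74. Among all genes 3.15% were called higher there and 4.13% lower, with a median of -0.06. On control diet edgeR called 0, with 1 at an unadjusted p under 0.05, and DESeq2 called 1 (Cx3cl1 in each case). Between diets edgeR called 0 of the 7 in either population, with 1 at an unadjusted p under 0.05 in each (Cxcl12 in macula densa cells, Cxcl16 in control cells), and DESeq2 called 0.

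Outside the 7 chosen genes, Ccl25, Ccl6 and Ccl27a were taken up by their mean CPM, which favours long transcripts. Per kilobase of exon their means over the 12 libraries were 0.413, 0.520 and 0.338 CPM, below Cxcl17 at 0.634 (32 counts in 1 library and at most 6 in any other), and Ccl27a was also below Cxcl13 at 0.357. Ccl25, which attracts thymocytes and gut T cells through CCR9, was at 3.79 ± 0.862 and 2.26 ± 0.872 CPM (SD) in macula densa cells on the 2 diets and at 2.99 ± 0.373 and 3.21 ± 1.27 CPM in control cells, and it passed in no comparison. Ccl6, a myeloid chemokine, had 3, 0, 0 and 0 counts in the 4 macula densa libraries. In control cells it had 7, 16, 14 and 3 counts on control diet and 5, 12, 0 and 36 on low salt with enalapril. Its counts on control diet were 7.34-fold higher in control cells (95% exact interval 2.34 to 37.1, counting error only). On low salt with enalapril the observed control-cell mean was 3.27-fold higher than 3 counts per macula densa library. The call over both diets (edgeR adjusted p 0.043) held without control-cell replicate 4 on control diet, control-cell replicate 1 or 3 on low salt with enalapril, or macula densa replicate 1 on control diet. It was lost without any 1 of the other 8 libraries (0.0573 to 0.119). Because Ccl6 passed the low-count filter only through control cells, this call is a description. Ccl27a, expressed by epithelia, had 0 to 19.4 estimated counts in all libraries and passed in no comparison.

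**Figure D3:**
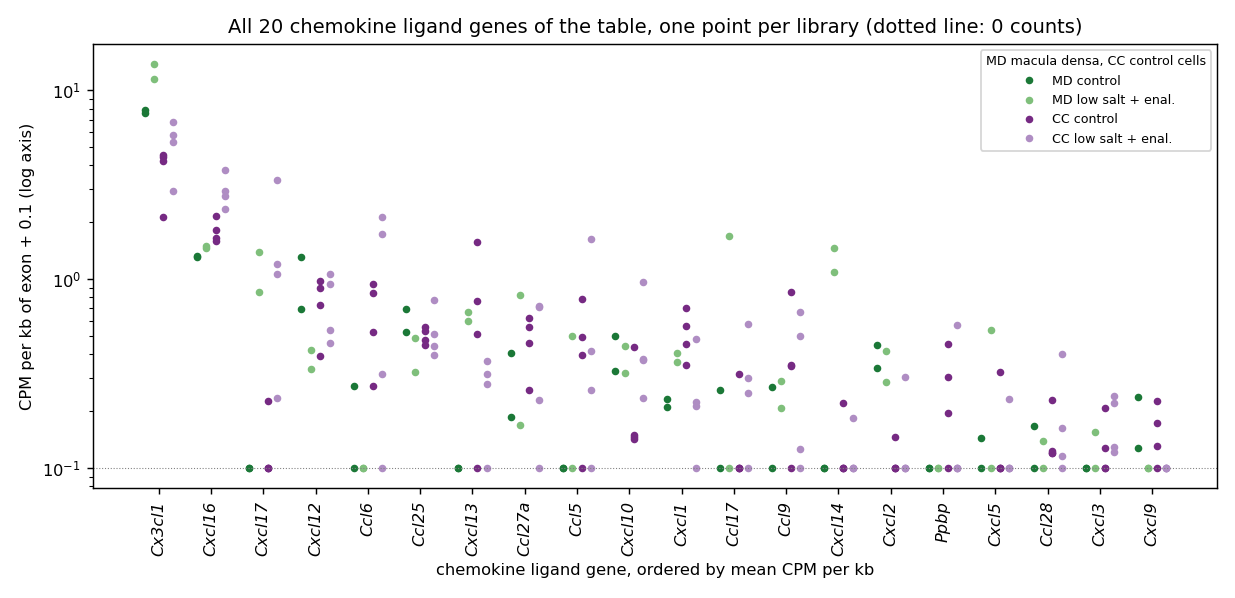
Level of all 20 chemokine ligand genes of the table as CPM per kilobase of exon plus 0.1 on a log axis, in order of the mean (x axis), with 1 point per library coloured by group; the dotted line is 0 counts. Cx3cl1 stands above the others (mean 6.31), Cxcl16 follows (1.95), and the means of the remaining genes are at most 0.634.

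Among 24 listed chemokine receptor genes, 15 had a row and 6 were tested. Averaged over both diets edgeR called 4 of the 6 lower in macula densa cells and 0 higher, beside 13.9% called lower among all genes. The median log2 fold change was -3.01, or -2.46 with genes at or under 3 counts in every library of a group set against 3 counts per library. The called genes were the atypical receptor genes Ackr2 and Ackr3, Ccrl2, whose product binds chemerin, and Cxcr4. Ackr2, Ccrl2 and Cxcr4 had at most 4 counts in any macula densa library and passed the low-count filter only through control cells. Their lower direction, and the median of the list, are therefore set in part by the filter and serve as a description. The receptor of Cx3cl1, Cx3cr1, and that of Ccl2, Ccr2, did not pass (log2 fold changes -1.14 and -2.46, adjusted p 0.461 and 0.124).

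Ackr2, which scavenges inflammatory CC chemokines, had 1 and 1 counts in macula densa cells on control diet and 0 and 2 on low salt with enalapril. In control cells it had 38, 34, 29 and 0 counts on control diet and 28, 11, 17 and 32 on low salt with enalapril. Replicate 4 on control diet, at 0, was the single control-cell library within the macula densa range. On control diet the ratio of control cells to macula densa cells was 27.8 (95% exact interval 7.50 to 233). It was 15.7 (4.22 to 132) on low salt with enalapril. Both intervals cover counting error only and leave out the spread between libraries. The edgeR adjusted p over both diets was 0.00926. Because of the filter, this value and those of Cxcr4 and Ccrl2 below are a description and no support for a lower level.

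Ackr3, the scavenger of Cxcl12, had 28 and 4 counts in macula densa cells on control diet and 0 and 3 on low salt with enalapril. In control cells it had 40, 91, 80 and 173 counts on control diet and 51, 34, 4 and 99 on low salt with enalapril. As CPM, all macula densa libraries lay below all control-cell libraries of the same diet, as did those of 7.6% of all genes tested. The edgeR adjusted p over both diets was 0.0116. On control diet the means were 1.60 ± 1.80 CPM (SD) in macula densa cells, where replicate 1 held 28 of 32 counts, and 9.60 ± 5.80 CPM in control cells. With low salt and enalapril 188 summed counts stood against 3, a ratio of 22.4 (95% exact interval 7.54 to 109, counting error only) that rests on a macula densa group at the floor. Cxcr4, the signalling receptor of Cxcl12, had 2, 1, 3 and 4 counts in macula densa cells. Its control-cell counts were 15, 17, 13 and 6 on control diet and 5, 16, 3 and 48 on low salt with enalapril, and the adjusted p of 0.036 became 0.0557 to 0.136 without any 1 of 9 libraries. It held with control-cell replicate 4 of the control diet or replicate 1 or 3 of low salt with enalapril left out. Ccrl2 had 1, 1, 0 and 0 counts in macula densa cells against 84, 60, 47 and 0 in control cells on control diet and 11, 23, 2 and 38 on low salt with enalapril. Its adjusted p of 0.0172 became 0.0524, 0.0681 and 0.062 with macula densa replicate 1 or 2 of the control diet or replicate 2 of low salt with enalapril left out.

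The receptor genes differed in the same direction as markers of leukocytes, of endothelium and of smooth muscle and renin cells. Markers of the distal tubule and collecting duct and of other cells did so too. Over both diets edgeR called lower 10 of 10 collecting duct principal cell markers and 6 of 10 intercalated cell markers. It also called lower 8 of 10 podocyte and 6 of 8 fibroblast and mesangium markers, beside 13.9% of all genes. The summed level of 13 leukocyte markers was 3.42 to 10.6 CPM in macula densa cells on control diet and 3.12 to 9.20 on low salt with enalapril, against 11.3 to 111 and 7.98 to 163 CPM in control cells. Of these markers, 4 and 5 were at 0 in the macula densa groups, Tyrobp in both. The summed level of 11 endothelial markers was 31.3 to 209 and 14.4 to 19.7 CPM in macula densa cells against 59.0 to 1868 and 308 to 1439 CPM in control cells. The smooth muscle and renin cell markers (7 genes) were also lower, at 20.3 to 42.0 CPM against 123 to 546 CPM over both diets. Some marker lists went the other way. On control diet, proximal tubule markers (12 genes) were at 162.5 and 275.3 CPM in macula densa cells against 50.0 to 117.6 CPM. On low salt with enalapril, distal convoluted and connecting tubule markers (9 genes) were at 1294 and 1205 CPM against 341.2 to 461.5 CPM. Control-cell replicate 4 on control diet had the lowest endothelial sum and the highest collecting duct principal cell sum of the control cells. It had 0 counts of Ackr2 and Ccrl2 and the highest level of Ackr3 (17.9 CPM). Control-cell replicate 3 on low salt with enalapril had the lowest leukocyte sum of the control cells (7.98 CPM), with Ackr2 at 3.57 CPM and Ccrl2 at 0.42 CPM. The part of these cells in the receptor values was not tested.

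**Figure D4:**
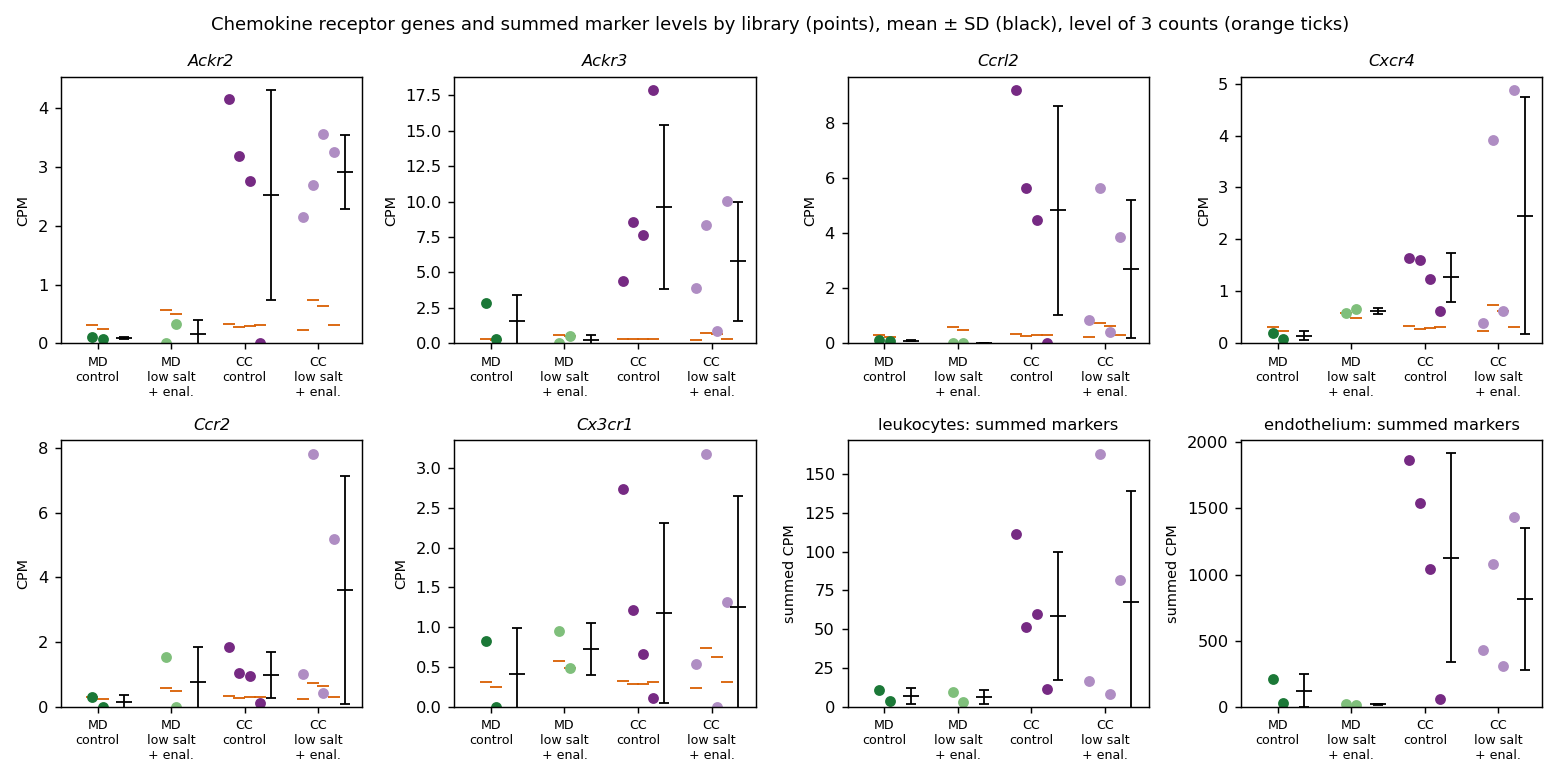
Level in CPM (linear axes) by library of the 6 tested chemokine receptor genes, and summed CPM of leukocyte and endothelial marker genes, in macula densa cells (MD) and control cells (CC) on each diet. Points are libraries, black marks the mean ± SD (bars below 0 are cut) and orange ticks the level of 3 counts. Ackr2, Ccrl2 and both marker sums are low in all MD libraries and in CC replicate 4 on control diet. The endothelial sum of MD replicate 1 on control diet (209 CPM) is above that of this CC library (59.0 CPM). In CC replicate 3 on low salt with enalapril the leukocyte sum is also low (7.98 CPM), with Ackr2 at 3.57 CPM.

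Genes for shedding, cleavage and presentation of chemokines were nearly all measured, with 14 of 15 tested. Averaged over both diets edgeR called 3 higher and 4 lower in macula densa cells (7.48% and 13.9% of all genes), with a median log2 fold change of -0.14, smaller than the shift that scaling by library totals gave over all genes. Those higher were the syndecan core protein genes Sdc2 and Sdc4 and the membrane protease gene Mmp14. Sdc2 was at 22.5, 21.3, 24.9 and 27.6 CPM in the 4 macula densa libraries and at 6.72 to 12.8 CPM in control cells, without overlap (log2 fold change 1.26, SE 0.13, adjusted p 8.55e-05). Separation in this direction within both diets held for 6.02% of all genes tested. Those lower included Hspg2, the heparan sulfate proteoglycan perlecan of basement membranes, and Dpp4, the peptidase that trims the ends of Cxcl12 and Cxcl10, with log2 fold changes of -2.84 (SE 0.47, adjusted p 0.00173) and -3.03 (SE 0.62, adjusted p 0.00577). Ndst1 and Extl3, enzymes of heparan sulfate synthesis, were the other 2, at -0.97 and -0.71 (adjusted p 0.00328 and 0.024). Mmp14 and Extl3 had smaller margins: the adjusted p of Mmp14 was 0.0348, up to 0.159 with any 1 of 7 libraries left out (all 4 macula densa libraries, control-cell replicate 3 of the control diet and replicates 2 and 4 of the other), and that of Extl3 was up to 0.107 with any 1 of 4 left out (macula densa replicates 1 and 2 of the control diet and 2 of the other, and control-cell replicate 2 of the control diet). Adam10 and Adam17, the sheddases of Cx3cl1 and Cxcl16, were at 16.9 to 30.6 and 8.37 to 14.0 CPM over all 12 libraries and were not called.

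Downstream of the receptors, edgeR called 1 of 18 tested signalling genes higher in macula densa cells over both diets and 8 lower, beside 7.48% and 13.9% of all genes, with a median log2 fold change of -0.87 (-0.76 with genes at the floor set to it). The higher gene was Rgs2, a regulator that shortens G protein signals (log2 fold change 1.10, SE 0.27, adjusted p 0.0129, but 0.0631 and 0.0534 with macula densa replicate 2 of the control diet or of low salt with enalapril left out). The lower genes included Grk5, a receptor kinase, at -1.85 (SE 0.24, adjusted p 0.000363), and Plcb3, a phospholipase, at -0.85 (SE 0.19, adjusted p 0.00831). The inhibitory G protein gene Gnai2 was at -1.67 (SE 0.40, adjusted p 0.0126), which became 0.0642 and 0.0638 with the same libraries left out. It was at 22.4, 13.1, 19.5 and 12.3 CPM in the 4 macula densa libraries. Control cells held it at 88.9, 75.8, 52.0 and 18.1 CPM on control diet and at 37.4, 54.6, 30.2 and 72.2 CPM on low salt with enalapril. Replicate 4 on control diet, the control-cell library with the lowest endothelial and the highest collecting duct principal cell sum, lay within the macula densa range.

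Of 27 tested nuclear factor kappa B pathway and target genes, 10 were called lower and 0 higher over both diets, beside 13.9% and 7.48% of all genes, with a median of -1.15 (-0.67 with genes at the floor set to it). Examples were Icam1, an adhesion molecule for leukocytes, at -2.03 (SE 0.36, edgeR adjusted p 0.0027), Csf1, the macrophage growth factor, at -3.59 (SE 0.71, adjusted p 0.00473), and Nfkbia, the inhibitor of the pathway, at -1.37 (SE 0.28, adjusted p 0.00538). Of 20 tested interferon pathway and target genes, 7 were called lower and 0 higher, beside the same shares of all genes (13.9% and 7.48%), with a median of -1.54 (-1.46 with genes at the floor set to it). Ifit2 and Ifit3, which inhibit viral translation, were at -2.15 (SE 0.42, adjusted p 0.00458) and -3.32 (SE 0.69, adjusted p 0.00592). The shedding, signalling, nuclear factor kappa B and interferon lists stood beside the same differences in leukocyte and endothelial markers and in the other marker lists lower in macula densa cells. They also stood beside a difference in immediate early genes, of which edgeR called 15 of 18 tested lower and 1 higher over both diets. The summed level of the 19 listed was 147 to 296 CPM in macula densa cells against 330 to 618 CPM in control cells. The part of these marker and immediate early genes in the values was not tested. In the diet comparisons and the difference of diet effects, edgeR called 0 of the genes in the receptor, shedding, signalling, nuclear factor kappa B and interferon lists. DESeq2 also called 0. At an unadjusted p under 0.05 the lists had, in that order, 0, 2, 3, 6 and 0 genes between diets in macula densa cells, 0, 3, 2, 1 and 0 in control cells, and 0, 2, 2, 1 and 0 for the difference of diet effects.

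The genes whose log2 CPM followed each chemokine most closely over the 12 libraries were named as a description, since all share depth and cell makeup. None are named for Cxcl14, which had at most 2 counts outside 1 group. For Cxcl12 they were Tle1, Pdzd2 and Flrt2 (Pearson r 0.888, 0.885 and 0.884). For Cxcl16 they included Vars and Xdh (0.906 and 0.891), and for Cx3cl1 they were Galnt7, Ash1l and Ergic3 (0.934, 0.93 and 0.917). Among these 3 chemokines themselves, r was -0.379 for Cxcl16 and Cx3cl1, -0.0659 for Cxcl12 and Cx3cl1 and -0.0536 for Cxcl12 and Cxcl16.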

How the data were processed

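Total RNA of sorted mouse kidney cells was sequenced in 12 libraries, prepared together with a strand-marking total-RNA kit, per the labels' protocols. The submitters' processing notes name STAR 2.61, Partek and mm10; the counting tool is not given in the sources used here. The authors deposited estimated counts per gene (16.1% of values not whole, and the smallest sum over libraries was 10), which were rounded here. Of 23378 genes, 23351 had the symbol and coordinates of GENCODE M21 after taking 1 from each end. No column lacked a sample (0 columns).

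The remaining steps were computed from those counts. Genes kept by filterByExpr of edgeR 4.0.16 (R 4.3.3; minimum count 10, total 15) numbered 14180. Counts were scaled by the trimmed mean of M values and tested by the quasi-likelihood test in 1 fit of all 12 libraries with a coefficient per group, Benjamini-Hochberg adjusted over all genes, at a threshold of 0.05. The 6 comparisons were populations within each diet and averaged over both, diets within each population, and the difference of diet effects. Comparisons share groups, so they are not independent. Alternatives included DESeq2 1.42.0, other scalings, no filter, replicate numbers as a block and each library left out. The code was tested on simulated data. Replicate pairs differed beyond counting noise.

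The 7 chemokines and the gene lists were chosen with earlier results of these data known, so no list test or adjustment over a list was made. Genes named from a list were those called over both diets or between diets, at most 5 per list and direction by adjusted p. Also named were the 3 ligands and receptors outside the 7 with the highest mean CPM, the 3 genes most correlated with each tested chemokine other than Cxcl14 (mean of at least 5 CPM, prior count 2), and defining cell markers; 2 genes under this rule are not reported here. Intervals and floors cover counting error only; the labels do not name molecular identifiers for the reads.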

Additional observations from a re-analysis of the deposited data

Results flagged for a closer look

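Control-cell libraries were checked for 1 value far from the other 3 in 28 sets of 4 libraries (14 genes), and 4 sets had one, where chance gives 1.4. No excess is read from this count, since the 2 sets of Cxcl14 rest on 2 counts, under the floor of 3, set against libraries at 0. Replicate 1 of the control cells was high for Cxcl14 under both diets, at -1.16 log2 CPM (control diet) and -1.39 log2 CPM (low salt with enalapril), from 2 counts each, where the other 3 libraries of each group had 0 counts (-2.13). Cx3cl1 was low in control-cell replicate 4 on control diet, at 3.03 log2 CPM (77 counts) against 4.04 to 4.15 in the others. Ackr2 was at -2.13 in the same library (0 counts) against 1.58 to 2.13. Among the control cells, that library also had the lowest summed podocyte and endothelial markers and the highest summed collecting duct principal cell markers. The part of cell makeup in these 2 values was not tested.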

How the results depend on the processing

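The call of Cx3cl1 as higher in macula densa cells over both diets held in 6 of 7 alternatives; with the title number as a replicate block its adjusted p was 0.0674. That block left 378 genes called on control diet (938 without it), 396 on low salt with enalapril (1031), 1908 over both diets (3027) and 0 between diets in control cells (1), and it called 0 ligands on low salt with enalapril and 0 over both diets. With the number in the sample description as a replicate block, 2292 genes and 1 ligand (Cx3cl1) were called on control diet and 2231 genes on low salt with enalapril, where Cxcl12 passed (adjusted p 0.0212) and Cxcl16 did not (0.142); 3 ligands passed there. Same-numbered libraries deviated together with r of 0.227, -0.0183, 0.0753 and -0.0371 for description numbers and from -0.377 to 0.278 for title numbers. The labels do not say what the numbers mark. With 2 macula densa libraries per group the deviations mirror each other, so these values do not settle whether the description numbers pair green and red cells of the same animal, and both blocks are given as alternatives. The DESeq2 test called 2000 genes and 1 ligand on control diet, 1922 genes and 3 ligands on low salt with enalapril, 93 genes between diets in macula densa cells, 74 in control cells and 13 for the difference of diet effects. With only the groups compared in the fit, 468 genes were called on control diet, 105 between diets in macula densa cells and 0 in control cells. On low salt with enalapril 1 ligand (Cx3cl1) was called with only the groups compared, with library totals alone and with no filter. Library totals alone gave 542 higher and 328 lower on control diet (382 and 556 by the main scaling) and 736 and 392 on low salt with enalapril (446 and 585). With a library left out, genes called ran from 122 (macula densa replicate 2 on control diet left out) to 2490 (control-cell replicate 4 of that diet left out), from 194 (macula densa replicate 2 of low salt with enalapril left out) to 1894, and from 1680 to 3968 in the 3 population comparisons, from 0 to 1 and from 1 to 5 between diets, and 0 to 0 for the difference; ligands ran from 0 to 0, 0 to 2 and 1 to 3 in the population comparisons. With a library left out the log2 fold change of Cxcl12 between populations on control diet ran from -0.091 to 0.95, and between diets in control cells from -0.27 to 0.21. The latter, -0.019, was 0.0148 without mitochondrial genes, Gm42418 and Mir6236, 0.0201 with only the groups compared and 0.0214 with the title block. The cause was not tested. Depth limits Cxcl14, Cxcl1, Cxcl10 and most receptors, which lie within a few counts of the floor.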

Other observations

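Cxcl2, a neutrophil attractant close to Cxcl1, was chosen after its values were seen. It had 7, 6, 2 and 4 counts in the 4 macula densa libraries and 0, 0, 1, 0, 0, 0, 2 and 0 in the 8 control-cell libraries, 19 counts against 3. It did not reach the low-count filter and was not tested in the main fit, and no test is given for it here. Cxcl17, a mucosal chemokine also chosen after its values were seen, had 32 counts in control-cell replicate 1 on low salt with enalapril, and at most 6 in any other library.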
